A study of Homo sapiens with 6 samples.

Results

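The aminoacyl-tRNA synthetase genes are the human nuclear genes whose enzymes join each amino acid to its tRNA. They were taken by name from 2 lists of intronic clusters, places where RNA was recovered with the splicing regulator Rbfox1: repeated entries were dropped and every cluster was kept whose gene field held a single synthetase name. This gave 37 genes of the 11805 named alone in either list, with 736 of 188027 clusters in the F125A list and 1161 of 366429 in the WT list. Of the 38 synthetase genes looked for, MARS2 alone had no cluster, 36 had clusters in both lists, and YARS2 had WT clusters only.

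The RNA had stayed protected from nuclease in purified complexes of FLAG-tagged Rbfox1 with LASR, a large assembly of other splicing proteins. The cells were HEK293 Flp-In, a human embryonic kidney line with a fixed site for inserting a transgene, and all of them belonged to the single Rbfox2 knockout line KO#7. The groups were FLAG-Rbfox1(F125A) with 2 libraries and FLAG-Rbfox1(WT) with 3 libraries. A further library came from the same knockout line without any transgene and was not analysed here, so RNA recovered without a FLAG-tagged protein could not be set beside the clusters. Each group was represented by 1 list of places on hg38, with no read count or score. No value below therefore has a replicate error or a test of the conditions. Intervals are exact 95% binomial intervals, which cover counting error only and treat clusters as independent. The lists do not show how deeply each library was sequenced, and the WT list held 1.95 clusters for each F125A cluster.

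Human cells hold separate sets of synthetases for the cytosol and for mitochondria, both encoded in the nucleus, and in this nomenclature most cytosolic genes end in 1 and most mitochondrial genes in 2. GARS1 and KARS1 serve both compartments. Several cytosolic enzymes are held together in the multi-synthetase complex, and all synthetases fall into class I or class II by the fold of their catalytic domain. Rbfox proteins are known for binding GCAUG in introns through an RNA recognition motif, and F125A replaces a phenylalanine of that motif that contacts the RNA, while the protein can still join LASR.

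Only a few letters of the synthetase clusters could be read, because the sequence tables used here cover promoters and miRNAs and no genome was given. The 2 clusters below are the only ones of these genes that lie wholly inside a window of RefSeq's promoter table. That table is of GRCh38.p14, the same assembly as hg38, and each cluster was found in 1 list only. The windows are not those of FARSB or IARS2 starts. They belong to long noncoding RNA genes annotated within the bounds of these genes, LOC105373902 in FARSB and LOC124904515 in IARS2. The FARSB sequence is an F125A cluster with no overlapping WT cluster, at chr2:222645554-222645607 on the minus strand, 10.5 kb into the gene. The IARS2 sequence is a WT cluster with no overlapping F125A cluster, at chr1:220119227-220119304 on the plus strand, 25.1 kb into the gene. Both are written 5′ to 3′ on the strand of the gene, with GCATG, the DNA form of the Rbfox motif, in capitals where it occurs.
FARSB F125A cluster: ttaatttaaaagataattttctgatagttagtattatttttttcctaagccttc
IARS2 WT cluster: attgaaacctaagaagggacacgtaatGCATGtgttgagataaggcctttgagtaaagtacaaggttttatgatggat
The FARSB cluster was 54 nt long, 50% thymine and 20.4% G or C, and it held no GCATG. The IARS2 cluster was 78 nt long and held 1 GCATG. The pentamer is not rare in windows of such lengths: it occurred in 3.68% of 349350 windows of 54 nt and in 5.32% of 209610 windows of 78 nt of the promoter table. A match is a description of the letters, and the absence of one says only that these letters are not in this window.

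The same table could be read for clusters of any gene, which puts these 2 sequences beside others of their kind. GCATG was searched on the transcribed strand. It occurred in 33 of 871 readable F125A clusters, or 3.79% (2.62 to 5.28%), and in 122 of 1016 readable WT clusters, or 12.01% (10.1 to 14.2%). Among WT clusters with no F125A partner, as in IARS2, it occurred in 89 of 286, or 31.1% (25.8 to 36.8%), and among WT clusters with a partner in 33 of 730, or 4.52% (3.13 to 6.29%). Among F125A clusters with no WT partner, as in FARSB, it occurred in 4 of 159, or 2.52%, and among those with a partner in 29 of 712, or 4.07%. These clusters lie near annotated transcription starts, and the share among the other synthetase clusters was not measured.

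A miRNA hairpin gave 1 more sequence. The host gene is QARS1, the glutaminyl-tRNA synthetase and a subunit of the multi-synthetase complex, which had 5 F125A and 6 WT clusters. A WT cluster at chr3:49099912-49099986 on the minus strand shared 3 nt with the 5′ end of the hairpin of MIR6890, at chr3:49099854-49099914. The hairpin is shown from RefSeq's miRNA table (GRCh38.p14) with the shared bases in capitals.
MIR6890 hairpin: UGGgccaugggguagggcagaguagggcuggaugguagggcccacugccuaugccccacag
The rest of the hairpin lay outside the cluster.

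The synthetase genes carried more F125A clusters for their WT clusters than all genes together did. Together they held 1.58 WT clusters for each F125A cluster, against 1.96 over all genes named alone. The 26 members with 20 clusters or more over both lists were given a log2 ratio of F125A clusters to WT clusters. It was taken after adding 1 to either count and is relative to the same ratio of the list totals, so that 0 stands for 1.95 WT clusters per F125A cluster. Its median over these 26 was 0.32, with quartiles of 0.03 and 0.76, against 0.04 over all 5626 genes with as many clusters, with quartiles of -0.26 and 0.36. Of the 26 members, 21 lay above 0, as did 53.5% of all genes, and 5 lay below 0, as did 46.5%. MARS1 and GARS1 lay 2-fold or more toward F125A, as did 1.99% of all genes, and no member lay 2-fold or more toward WT, as did 2.51%. The interval, taken without the added 1, lay wholly above 0 in 5 members (LARS1, IARS1, GARS1, MARS1 and YARS1), as in 4.37% of all genes. It lay wholly below 0 in FARS2 alone, as in 5.85% of all genes, and held 0 in the remaining 20.

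Gene length moved with this ratio. Across genes, Spearman's rho of the ratio with annotated length was -0.52 over the 26 members and -0.57 over all 5626 genes, which are not independent replicates. Relative to the median of genes of similar length (the same of 20 bins), the members' median ratio was 0.19, 18 lay above 0 (49.4% of all genes did) and 8 below (49.7%). No member then lay 2-fold or more toward F125A (0.462% of all genes) or toward WT (2.1%). Members over 100 kb, which were FARS2, LARS2, NARS2 and WARS2, had a median of -0.25 against -0.19 over all genes of that class. The 16 members under 30 kb had a median of 0.68 over the 6 tested, against 0.50 over all genes of that class. Between 30 and 100 kb the members' median was 0.38 over the 16 tested, against 0.11, so that the length class with the most members was also the one furthest from its background.

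**Figure D1:**
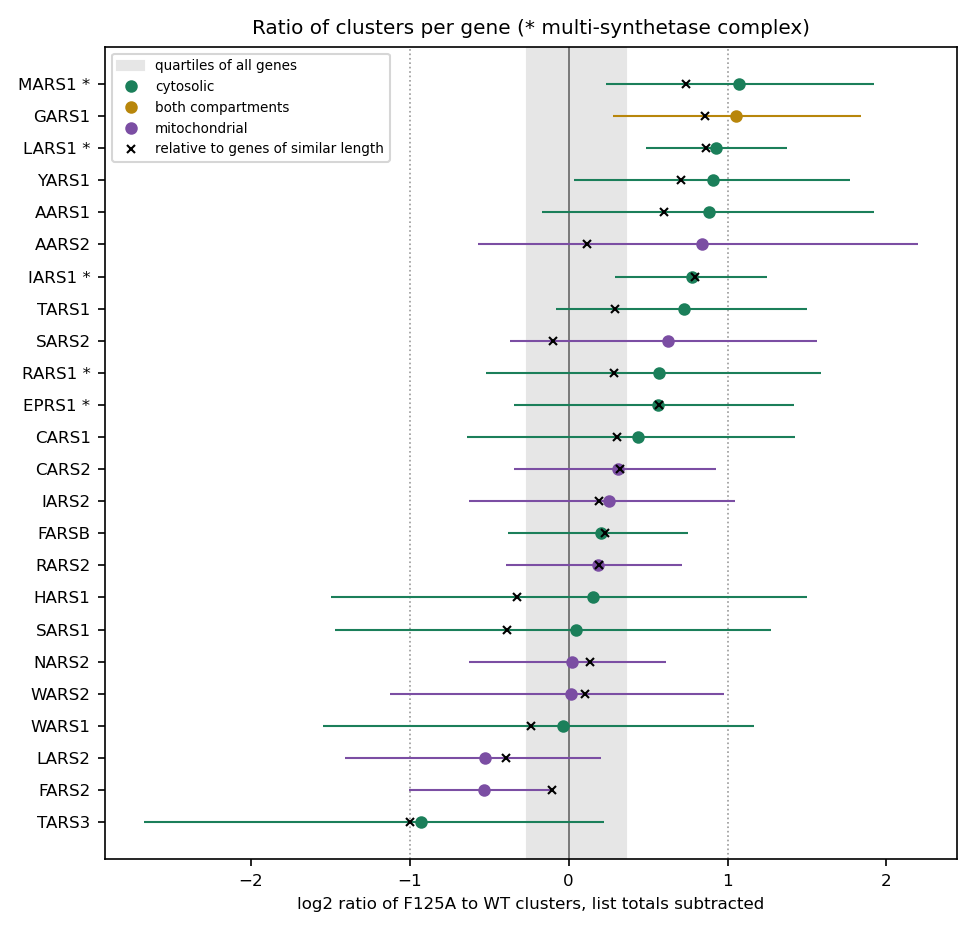
Log2 ratio of F125A to WT clusters (horizontal axis, relative to the list totals) for the synthetase genes described here with at least 20 clusters, ordered by the ratio and coloured by compartment, with exact 95% counting intervals as lines, crosses for the ratio relative to genes of similar length, and dotted lines at 2-fold. LARS1, IARS1, GARS1, MARS1 and YARS1 have intervals wholly above 0 and FARS2 has one wholly below 0.

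Of the groups with more than 1 tested gene, the multi-synthetase complex had the highest median ratio toward F125A. Its 8 genes held 248 F125A and 307 WT clusters, and 5 of the 6 tested lay above 0, with a median of 0.67 that stayed at 0.66 relative to genes of similar length. LARS1, which charges leucine and also serves as a leucine sensor for mTORC1, had 87 F125A and 89 WT clusters (0.93, interval 0.49 to 1.37). IARS1, the isoleucyl enzyme, had 71 F125A and 81 WT clusters (0.77, 0.29 to 1.25). Nearly equal counts in lists of such unequal size put both genes well toward F125A. MARS1, whose enzyme charges methionine for initiation and elongation, had 27 F125A and 25 WT clusters (1.07, 0.23 to 1.92). EPRS1, a single protein that charges both glutamate and proline, had 21 F125A and 28 WT clusters (0.56, -0.34 to 1.42), and RARS1, the arginyl enzyme, had 15 and 20 (0.57, -0.52 to 1.59). Both of these intervals held 0. KARS1, the lysyl enzyme, had only 2 clusters in each list, like QARS1 too few for a ratio.

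The other cytosolic synthetases were more mixed. In the 12 cytosolic genes outside the complex there were 178 F125A and 263 WT clusters, and 7 of the 9 tested lay above 0, with a median of 0.21 (0.23 relative to genes of similar length). YARS1, the tyrosyl enzyme, had 24 F125A and 25 WT clusters (0.91, 0.03 to 1.77). AARS1, the alanyl enzyme, which also removes wrongly attached amino acids, had 17 and 18 (0.88, -0.17 to 1.92). TARS1, the threonyl enzyme, had 27 and 32 (0.73, -0.08 to 1.502, and 0.29 relative to genes of similar length), and only the YARS1 interval lay clear of 0 among these. CARS1, the cysteinyl enzyme, had 15 F125A and 22 WT clusters (0.44). FARSA and FARSB, the alpha and beta subunits of the cytosolic phenylalanyl enzyme, had 3 and 44 F125A clusters and 4 and 75 WT clusters, and the FARSB ratio was 0.21 (-0.38 to 0.75). The subunits of this 1 enzyme thus differed widely in clusters, as they do in length, FARSB spanning 89.2 kb and FARSA 11.2 kb.

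TARS3, a second cytosolic threonyl-tRNA synthetase and a paralog of TARS1, stood at the WT end of all members. It had 6 F125A and 25 WT clusters (-0.93, interval -2.67 to 0.22), and -0.997 relative to genes of similar length, just short of 2-fold. Both ratios include the added 1. Its counts alone, 4.17 WT clusters per F125A cluster against 1.95 in the lists, lay past 2-fold toward WT. HARS1, the histidyl enzyme, had 7 F125A and 13 WT clusters (0.16), SARS1, the seryl enzyme, 8 and 16 (0.05), and WARS1, the tryptophanyl enzyme, 8 and 17 (-0.04). These ratios near 0 mean close to the ratio of the list totals, with intervals of over 2 log2 units. Relative to genes of similar length all 3 lay below 0, HARS1 at -0.32, SARS1 at -0.39 and WARS1 at -0.23. NARS1, the asparaginyl enzyme, had 9 F125A and 8 WT clusters and VARS1, the valyl enzyme, 10 and 8, both with too few clusters for a ratio.

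GARS1, whose 1 gene supplies glycyl-tRNA synthetase to both compartments, had 31 F125A and 29 WT clusters (1.06, interval 0.28 to 1.84, and 0.86 relative to genes of similar length). It lies at chr7:30594735-30634033 on the plus strand. With MARS1, at chr12:57488068-57516652 on the plus strand, it was 1 of the pair of members past 2-fold, and both stood only just past that bound.

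Mitochondrial synthetase genes lay closer to the list totals. Their 16 genes held 279 F125A and 562 WT clusters, and pooled over the genes these gave a ratio of -0.05 (-0.26 to 0.16), whereas the 424 F125A and 568 WT clusters of the 19 cytosolic genes gave 0.54 (0.36 to 0.72). The medians over tested genes were 0.56 for 15 cytosolic and 0.22 for 10 mitochondrial genes, and 0.29 and 0.11 relative to genes of similar length. The median annotated length was 42.5 kb for cytosolic and 74.1 kb for mitochondrial members, and the part of length in the difference was not tested beyond that correction. In the cytosolic pool LARS1 (87 F125A and 89 WT clusters) and IARS1 (71 and 81) held the most clusters. FARS2 weighed heavily in the mitochondrial pooled value. It encodes the mitochondrial phenylalanyl enzyme, spans 521.65 kb at chr6:5249934-5771583, and had 58 F125A and 165 WT clusters (-0.53, -1.003 to -0.11), yet only -0.11 relative to genes of similar length. LARS2, the leucyl enzyme, had 19 F125A and 55 WT clusters (-0.52, -1.41 to 0.20).

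The remaining mitochondrial genes had intervals that held 0 or too few clusters. SARS2, the seryl enzyme, had 18 F125A and 23 WT clusters (0.63, -0.37 to 1.56), but -0.10 relative to genes of similar length. RARS2, the arginyl enzyme, had 45 F125A and 78 WT clusters (0.18), CARS2, the cysteinyl enzyme, 36 and 57 (0.31), and NARS2, the asparaginyl enzyme, 35 and 68 (0.02). IARS2, the isoleucyl enzyme, had 21 F125A and 35 WT clusters (0.25), and WARS2, the tryptophanyl enzyme, 13 and 26 (0.02). These 5 ratios lay between 0 and the upper quartile of all genes, 0.36. AARS2, the alanyl enzyme, had 10 F125A and 11 WT clusters (0.84, interval -0.57 to 2.20), but 0.12 relative to genes of similar length. Too few for a ratio were the 6 F125A and 9 WT clusters of VARS2, the 4 and 4 of EARS2, the 3 and 11 of TARS2, the 2 and 3 of HARS2, the 1 and 1 of PARS2, and the 0 and 3 of YARS2.

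**Figure D2:**
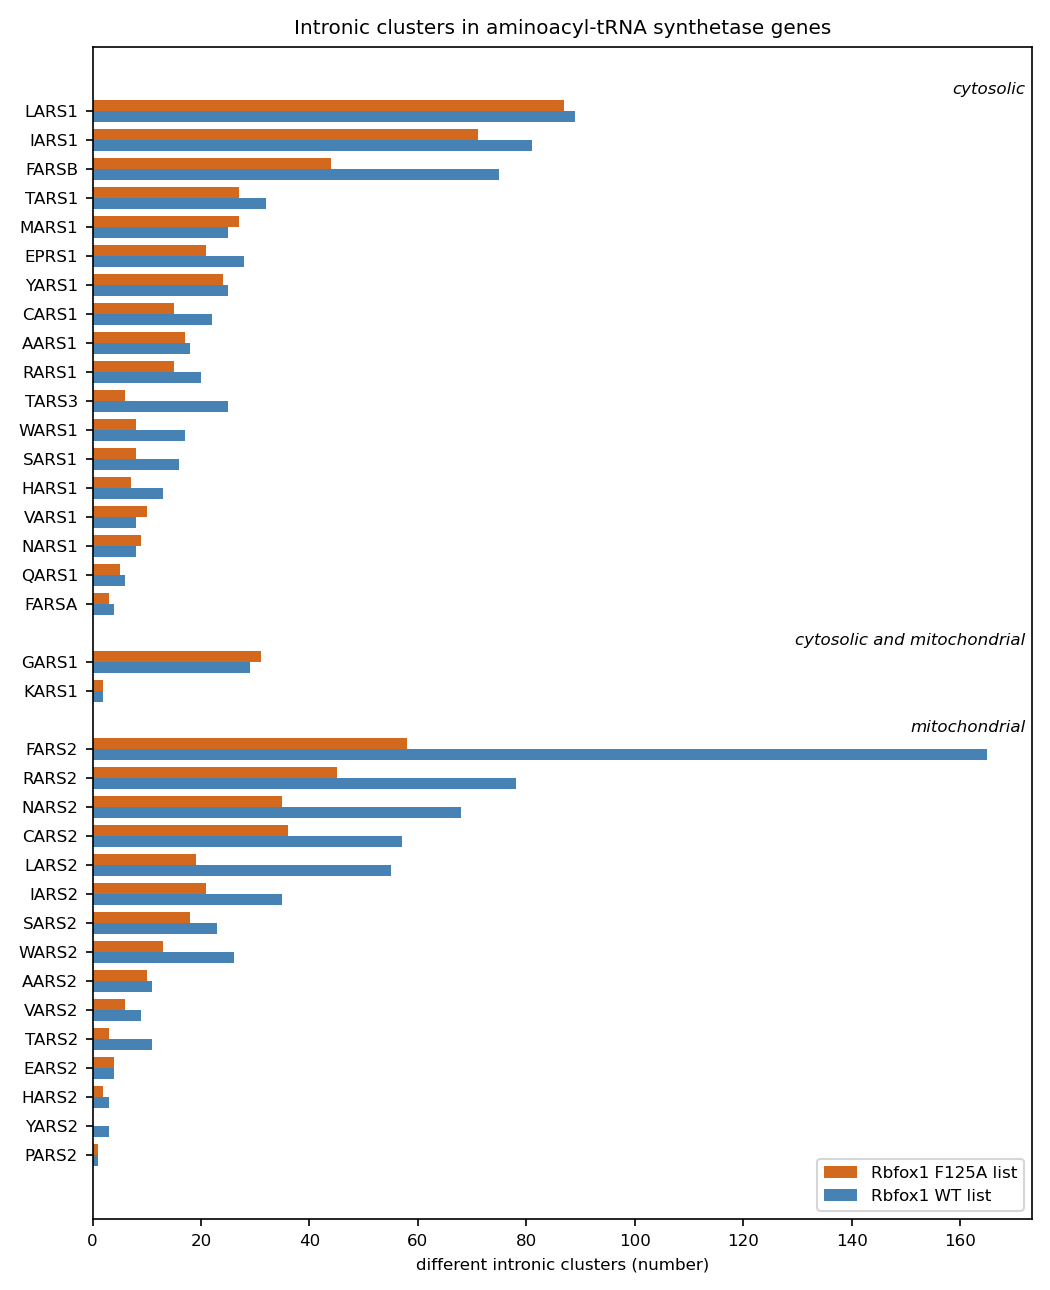
Number of different intronic clusters (horizontal axis) in each synthetase gene described here, F125A bars above WT bars, grouped by compartment. LARS1 and IARS1 have nearly equal bars, while FARS2 has 58 F125A and 165 WT clusters.

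Where a cytosolic and a mitochondrial gene charge the same amino acid, the cytosolic one did not always lean further to F125A. Of 16 such pairs, 9 had both genes tested. EPRS1, which charges amino acids of both EARS2 and PARS2, was left out of these pairs, and neither of those genes had enough clusters for a ratio. The cytosolic ratio was the higher in 6 pairs and the mitochondrial in 3, serine and tryptophan among them. Relative to genes of similar length these numbers were 5 and 4. Some pairs were close to ties: cytosolic minus mitochondrial, the gap was -0.05 for tryptophan and 0.05 for alanine. No gap was given an interval. The widest gap was for leucine, where LARS1 exceeded LARS2 by 1.45 on the log2 scale, and by 1.26 relative to genes of similar length. By fold class, the median ratio was 0.38 over 12 tested class I genes and 0.21 over 13 tested class II genes, and 0.30 and 0.04 relative to genes of similar length.

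**Figure D3:**
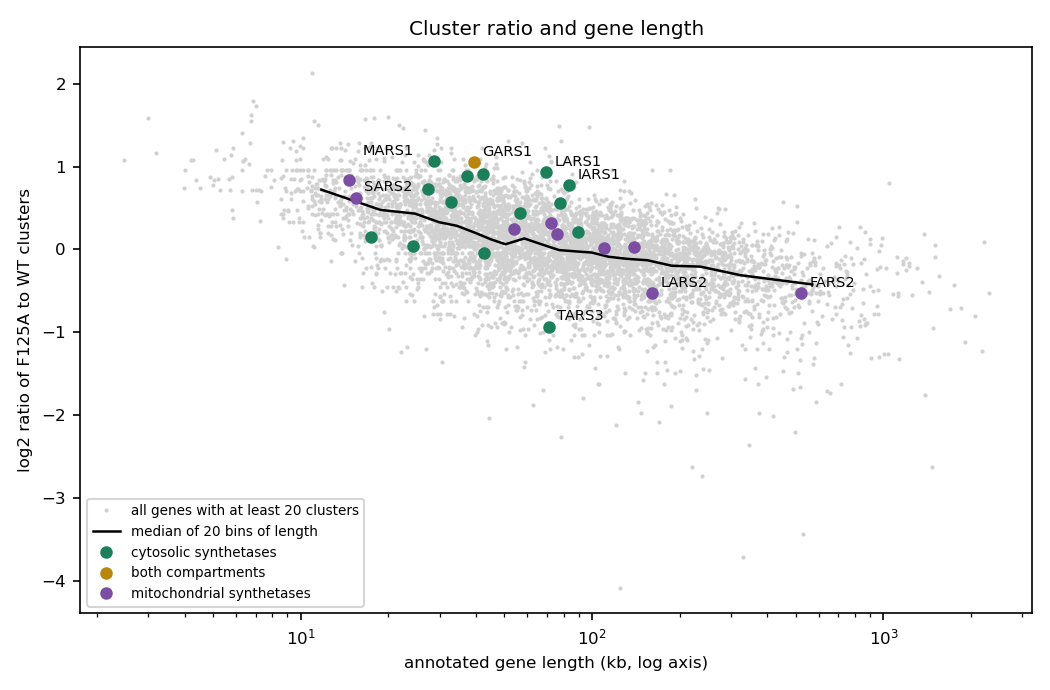
Log2 ratio of F125A to WT clusters (vertical axis) against annotated gene length in kb (horizontal log axis) for all 5626 genes with at least 20 clusters (grey) and for the synthetase genes described here (coloured by compartment), with the median of 20 length bins as a line. LARS1, IARS1, GARS1 and MARS1 lie above the line, TARS3 below it, and FARS2 close to it.

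In the F125A list, clusters were most closely packed in LARS1 among the tested members. Over its 69.6 kb it carried 12.5 F125A and 12.8 WT clusters per 10 kb of annotated gene, and of 5626 tested genes 250 were denser in the F125A list and 576 in the WT list. SARS2, the densest tested member in the WT list, followed with 11.6 F125A and 14.8 WT clusters per 10 kb over 15.5 kb. TARS1 had 9.86 and 11.7, MARS1 9.45 and 8.75, and IARS1 8.50 and 9.70. TARS3, FARS2, LARS2 and WARS2 were the sparsest of the tested members in the F125A list, at 0.85, 1.11, 1.18 and 1.19 clusters per 10 kb, with 3.53, 3.16, 3.42 and 2.38 in the WT list. The median of the tested members was 4.29 F125A and 6.54 WT clusters per 10 kb, against 2.97 and 5.80 over all tested genes. With a minimum of 20 clusters, a short gene was tested only if its clusters were dense. Tested members had a median length of 55.2 kb, against 71.2 kb over all tested genes. The part of length in the difference in density was not tested. The density also depends on how strongly each gene is transcribed, which was not measured here.

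A smaller share of F125A clusters coincided with a WT cluster in the synthetase genes than over all genes. Taking as partners clusters on the same strand that share at least 1 nt, 572 of 736 F125A clusters, or 77.7% (74.5 to 80.7%), had a WT partner, against 85.3% (85.1 to 85.4%) over all genes named alone. Leaving out each gene in turn moved the members' share between 76.5%, without FARS2, and 78.9%, without LARS1. In the other direction, 579 of 1161 WT clusters, or 49.9% (47.0 to 52.8%), had an F125A partner, against 44.7% over all genes. The F125A share was 75% (69.1 to 80.3%) in the multi-synthetase complex, 73.6% (69.1 to 77.7%) in all cytosolic genes and 85.7% (81.0 to 89.6%) in mitochondrial genes. A low share was not particular to the synthetase genes. In the lists of other genes that act on tRNAs, described below, it was 71.9% (63.7 to 79.2%) for scaffolds, editing and transamidation. For tRNA maturation and modification it was 82.4% (78.8 to 85.6%).

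The gap between the synthetase genes and all genes lay in members of middling length. Between 30 and 100 kb the share of F125A clusters with a WT partner was 74.4% (70.2 to 78.3%) in members against 83.7% in all genes. Under 30 kb it was 79.0% against 79.4%, and over 100 kb 88.8% against 87.7%. The ratio of clusters moves with the share: across 4623 genes with at least 10 F125A clusters, Spearman's rho of the share with the ratio was -0.31. Among members with at least 10 F125A clusters, the median share was 80.0% over 22 genes, against 85.7% over those 4623.

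The 5 genes with intervals wholly above 0 had lower shares of F125A clusters with a WT partner than the 85.3% over all genes. This is no separate result, because a gene with fewer WT clusters for its F125A clusters also offers fewer partners. In LARS1, 60 of 87 F125A clusters (69.0%) had a WT partner, and 338 of the 4623 genes had a lower share. In GARS1 it was 19 of 31 (61.3%), in YARS1 15 of 24 (62.5%) and in MARS1 18 of 27 (66.7%). FARSB had a share as low, 28 of 44 (63.6%), although its ratio of 0.21 was not far from 0. In IARS1, 56 of 71 (78.9%) had a partner, just below the lower quartile of all genes, 79.3%. A low share did not go with a lean to F125A in every member: LARS2, with a ratio of -0.52, had 73.7%. At the upper end, all 18 F125A clusters of SARS2 and all 13 of WARS2 overlapped a WT cluster, as did 53 of 58 in FARS2 (91.4%).

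**Figure D4:**
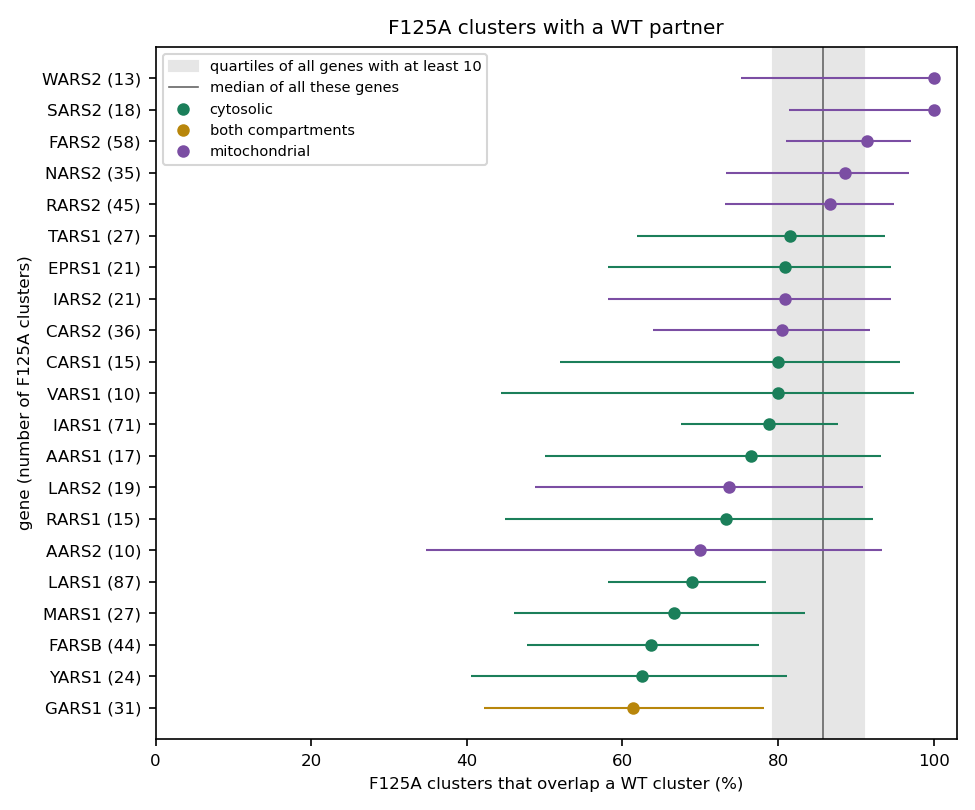
Share of F125A clusters that overlap a WT cluster on the same strand (horizontal axis, percent) in the synthetase genes described here with at least 10 F125A clusters, with exact 95% intervals. The grey band and line mark the quartiles and the median (85.7%) of the 4623 genes with as many. The lowest are GARS1, YARS1, FARSB, MARS1 and LARS1, and AARS2, RARS1, LARS2, AARS1 and IARS1 also lie below the band.

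Cluster length differed between the lists and with partnership. The median was 67 nt for F125A clusters of synthetase genes, with quartiles of 52 and 84 nt, and 60 nt for WT clusters, with quartiles of 47 and 76 nt. Over all genes it was 64 and 60 nt. F125A clusters without a WT partner were longer (median 76 nt) than those with one (65 nt), whereas WT clusters without a partner were shorter (57 nt) than those with one (64 nt). Over all genes the gap for F125A clusters was smaller, 68 nt without and 63 nt with a partner. For WT clusters it was nearly the same as in members, 57 nt without and 63 nt with a partner. The longest F125A cluster was in TARS1, 218 nt at chr5:33455399-33455616, and had no WT partner, and the longest WT cluster was in MARS1, 175 nt at chr12:57512066-57512240.

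Along the genes, the WT clusters were most frequent in the middle, and the F125A clusters were so only with LARS1 included. Divided by position into 5 equal parts from the gene start, the members' F125A clusters numbered 162, 140, 189, 146 and 99, and the WT clusters 247, 222, 287, 235 and 170. The middle part thus held 25.7% of F125A and 24.7% of WT clusters, against 19.9% and 20.6% over all genes. LARS1 contributed most to this middle part, with 5, 15, 38, 17 and 12 F125A and 8, 14, 37, 12 and 18 WT clusters in its 5 parts. Without LARS1 the first part held the most F125A clusters, 157, with 151 in the middle part, while the middle part still held the most WT clusters, 250, with 239 in the first. Leaving out any other single gene kept the middle part the largest in both lists. The first 10% of the gene held 13.0% of F125A and 10.9% of WT clusters of the members, against 15.7% and 13.9% over all genes. The lower share lay mainly in members of 30 to 100 kb, with 10.4% of F125A and 8.78% of WT clusters. All genes of that class had 14.2% and 12.6%. LARS1, with 2 of 87 F125A and 2 of 89 WT clusters there, and CARS2, described below, weighed on these shares. The class was not recounted without them. Under 30 kb the members' shares were 18.1% and 14.9%, against 15.5% and 13.2%, and over 100 kb 17.6% and 13.1%, against 16.7% and 14.7%. The last 5 kb held 7.47% of F125A and 6.72% of WT clusters, against 5.22% and 3.78%. A fixed window is a larger part of a shorter gene. Tested members had a median length of 55.2 kb, against 71.2 kb over all tested genes, and the part of length in this share was not tested. In FARS2 and CARS2 the annotated bounds begin well before all their starts in RefSeq's promoter table, which lie 11.1 and 11.6 kb inside them in FARS2 and 7.01 and 7.41 kb in CARS2. Positions in both are thus counted from a start that may not be the one used, and CARS2 had 0 of 36 F125A and 0 of 57 WT clusters in its first 10%.

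**Figure D5:**
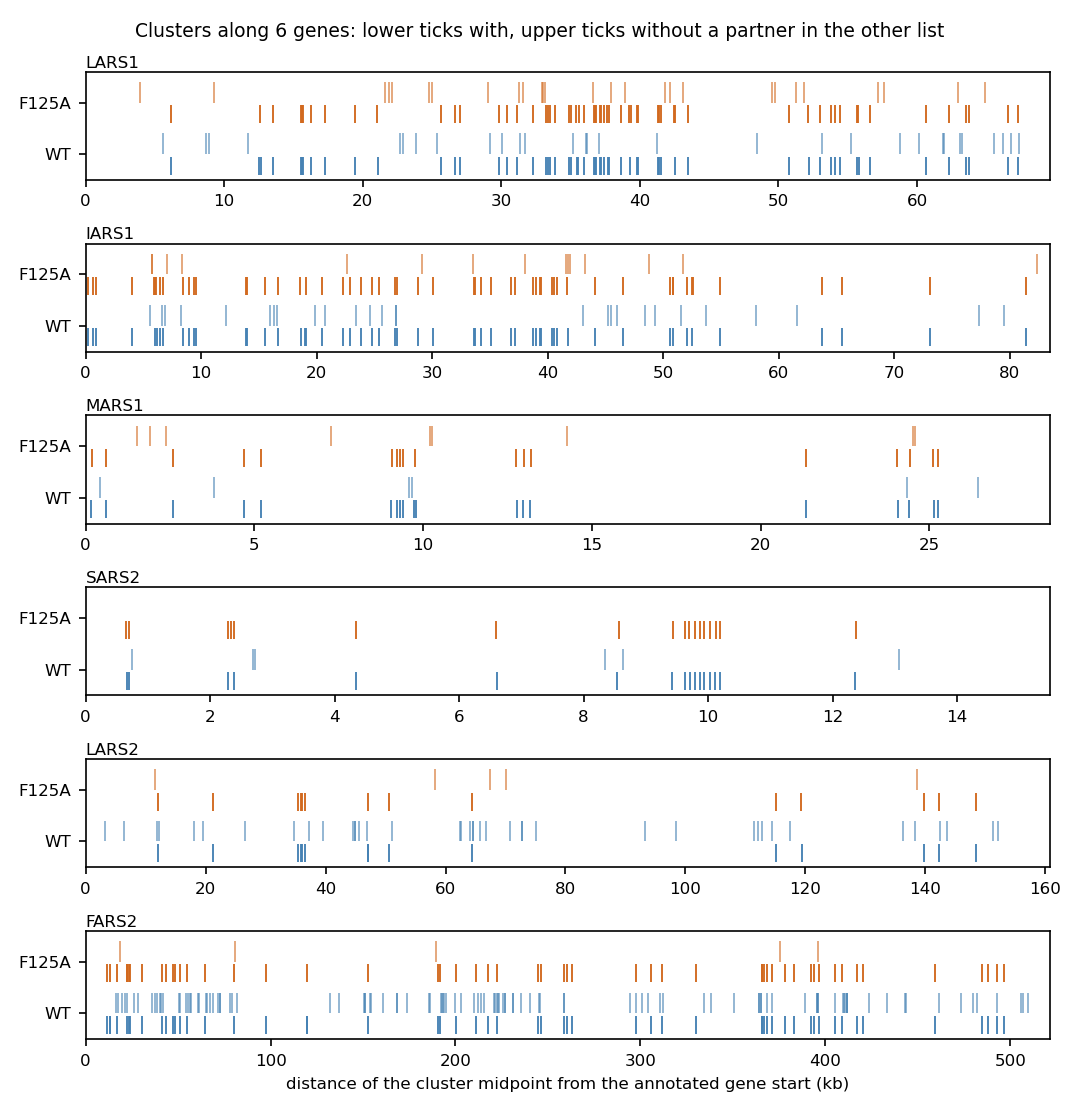
Clusters along LARS1, IARS1, MARS1, SARS2, LARS2 and FARS2, as distance of the cluster midpoint from the annotated gene start in kb (horizontal axis, a scale for each gene), with the F125A list above the WT list. Within a list the lower ticks have a partner in the other list and the upper, paler ticks have none: SARS2 has no F125A cluster without a partner, and FARS2 has 5 against many in its WT list.

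Some stretches carried clusters nearly end to end, which was not particular to these genes. In members 10.7% of F125A and 9.30% of WT clusters touched a neighbour in the same list, against 9.56% and 10.8% over all genes. SARS2 had 8 clusters in 625 nt in the F125A list, at chr19:38920545-38921169 on the minus strand, and 8 in 621 nt in the WT list, at chr19:38920549-38921169, and each had a partner. Every entry of SARS2 was repeated 1 time in both lists, 18 repeats in the F125A and 23 in the WT list. In all, 122 genes of the F125A list and 130 of the WT list had every entry repeated in this way. Repeats were counted once, and no other synthetase gene had any. CARS2 had 8 WT clusters in 335 nt at chr13:110662160-110662494, of which 4 had no F125A partner. LARS1 had 4 F125A clusters in 387 nt at chr5:146149404-146149790, of which 3 had no WT partner. FARS2 had 4 WT clusters in 349 nt at chr6:5645497-5645845, and none of them had an F125A partner. In all of FARS2, 55 of 165 WT clusters had one. Over all genes 44.7% of WT and 85.3% of F125A clusters had a partner. In KARS1 all the clusters fell in 1 small region of the gene: the F125A clusters at chr16:75638359-75638404 and chr16:75638493-75638595 each overlapped a WT cluster, at chr16:75638325-75638413 and chr16:75638487-75638595.

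Other genes that act on tRNAs were counted from lists chosen by function. Of 18 genes for scaffolds of the complex, editing, transamidation and delivery, 16 had clusters, 139 F125A and 218 WT in all, and the median ratio of the 5 tested was 0.23, 4 above 0 and 1 below. XPOT, the exportin that carries tRNAs out of the nucleus, had 39 F125A and 35 WT clusters (1.11, interval 0.42 to 1.82) and alone lay 2-fold or more toward F125A, as did 1.99% of all genes, but it lay at 0.99, short of 2-fold, relative to genes of similar length. On that scale the list's median was 0.09, with 3 of the 5 above 0 and 2 below. DTD1, a deacylase that removes D-amino acids from tRNA, had 44 and 80 (0.11), AIMP1, a scaffold of the multi-synthetase complex, 9 and 14 (0.38), and PTRH2, a peptidyl-tRNA hydrolase, 8 and 14 (0.23). Of 36 genes for tRNA maturation and modification, 31 had clusters, 512 F125A and 917 WT, and the median of the 13 tested was 0.51, with 10 above 0 and 3 below. CDKAL1, a tRNA methylthiotransferase, had 136 F125A and 347 WT clusters (-0.38), and 0.04 relative to genes of similar length. NSUN2, a tRNA methyltransferase, had 48 and 66 (0.51), PUS7, a pseudouridine synthase, 49 and 60 (0.68), and TRIT1, a tRNA isopentenyltransferase, 41 and 60 (0.42). PUS1, another pseudouridine synthase, was named after its value was seen, as the 1 gene of this list past 2-fold toward F125A, with 17 and 14 clusters (1.23), against 1.99% of all genes past that bound. Relative to genes of similar length PUS1 lay at 0.75, short of 2-fold, and the list's median was 0.26, again with 10 above 0 and 3 below.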

How the data were processed

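Nuclease-protected RNA of FLAG-Rbfox1/LASR complexes was sequenced. Per the labels, reverse transcription primers carried molecular identifiers of 4 nt, and cDNA inserts of 20 to 80 nt were selected. The tools named in the submitters' processing notes are cutadapt and STAR, and the build is hg38. Not given in the sources used here: versions, the cluster caller and its threshold, the pooling of libraries, the use of the control and the annotation. The authors deposited 1 list of clusters per Rbfox1 group, and per the file headers each entry holds chromosome, start, end, gene, region and strand. Samples were grouped by the genotype in their labels.

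Repeated entries were dropped, 0-based starts are printed 1-based, and gene bounds came from RefSeq's GRCh38.p14 table (11720 names matched by symbol, 80 by synonym, 5 not at all). Without exon positions, density and position refer to the annotated gene. Members were named with their counts, and with a ratio from 20 clusters on, except that values of some single genes are not reported here, although group values include them. Also named were the 4 genes with most clusters of each of 2 other lists. QRSL1 equalled PTRH2 in clusters and is not described. The members, lists and groupings were chosen with earlier results of these data known. The share of clusters with the Rbfox pentamer was to be read from a genome, which was not given, and was read from promoter windows instead. The alternatives tried were another added count, minimum, centring and overlap rule, merging of clusters closer than 50 nt, correction for gene length, keeping repeats, and leaving out a stretch of 5433 entries identical in both lists, which held no member. The ratio and its interval were tested on counts simulated as independent binomial draws, and overlap and merging on a few made-up intervals. Dependence between clusters and differences between libraries were not simulated. Python 3.11.15, pandas 2.3.3, numpy 2.4.6 and scipy 1.17.1 were used.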

Additional observations from a re-analysis of the deposited data

How the results depend on the processing

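The median log2 ratio of the synthetase genes, 0.32, ranged from 0.19 relative to genes of similar length to 0.44 with a minimum of 10 clusters. Genes 2-fold or more toward F125A numbered 2, but 4 with the minimum of 10 (VARS1 and NARS1 in addition, under 20 clusters each) and 0 relative to genes of similar length. None lay 2-fold or more toward WT in any setting run, but each setting added 1 or 5 to either count. With nothing added, the counts of TARS3 lay past 2-fold toward WT. With at least 50% of a cluster covered, 73.9% of F125A and 46.9% of WT clusters had a partner, and the median over genes, chosen after seeing the data, was 80.0% and 53.8%. The WT median length was 63 nt after merging. Within 1 kb of the gene start lay 3.40% of F125A and 2.33% of WT clusters. No paired analysis was possible because each group had 1 list without values per library, so no library could be left out either. Widening clusters for the pentamer was not run, for want of a genome. Over 179 values of single genes under the alternatives, none moved beyond its counting interval. That count says little about stability, because several alternatives could hardly move a ratio. The minimum of 10 clusters shifted none, and centring shifted all by -0.04. The sign of the ratio changed in 4 of 23 genes on merging and in 3 of 26 relative to genes of similar length. It changed in 2 of 26 on centring and in 1 of 26 with 5 added to each count. Ratios of genes with few clusters have intervals too wide to show a 2-fold difference.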

Other observations

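The longest stretches between clusters without one in either list lay in the 4 members over 100 kb, and were not compared with other genes. The longest in FARS2 was 31.3 kb, or 5.99% of the gene, and that in WARS2 was 29.7 kb, or 27.2%. NARS2 had one of 18.6 kb and LARS2 one of 18.2 kb. As a share of the gene, some shorter members had more, such as FARSA with 52.1% and TARS2 with 39.9%. Beside QARS1, 4 members contain annotated miRNAs, and none of these hairpins overlapped a cluster of its host. In MARS1 the nearest cluster edge lay 11 nt from MIR6758, in IARS1 197 nt from MIR3651 and in TARS2 879 nt from MIR6878. In IARS2 the distances were 43 nt for MIR194-1 and 126 nt for MIR215, both encoded on the opposite strand.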
